A study of Mus musculus with 6 samples.

Results

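Kinesins and dyneins are the motor proteins that walk along microtubules, and tubulins are the proteins from which microtubules are built. The genes were chosen by symbol, as kinesin heavy chains (Kif and Kifc), kinesin light chains (Klc), cytoplasmic dynein subunits (Dync, Dynll, Dynlt, Dynlrb) and alpha, beta and gamma tubulins, without pseudogenes. They numbered 75 of the 16423 genes with values. Of these, 52 had a mean of at least 1 FPKM (read counts scaled for gene length and library total) over all libraries and were tested, and 23 lay below that level. The study compared 3 siYBX1 libraries, from cells transfected with siRNAs against Ybx1, with 3 siNC libraries, from cells given a control siRNA. All cells were of the wild-type mouse mesenchymal line C3H10T1/2, a single cultured line, and all had been driven towards fat cells first with isobutylmethylxanthine, dexamethasone, insulin, triiodothyronine, indomethacin and rosiglitazone and then with insulin, triiodothyronine and rosiglitazone alone. Transfection was on day 4 and RNA was taken 48 h later. The YBX1 protein carries a cold-shock domain and attaches to RNA as well as DNA. The labels do not say how many siRNAs against Ybx1 were used or whether replicates were separate cultures, and the p-values therefore reflect how far these libraries differ among themselves, possibly for technical reasons alone.

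A microtubule grows from a gamma tubulin template by addition of alpha and beta tubulin pairs. Most kinesins carry cargo or push filaments towards the growing end, and cytoplasmic dynein moves the other way. One class of kinesins builds the mitotic spindle, moves chromosomes and completes cell division, and their genes are switched on as cells approach mitosis. Another class, with kinesin light chains as cargo adaptors for some of its members, moves organelles and vesicles in cells that do not divide, fat cells included, where mitochondria and lipid droplets are among the cargo.

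Library totals, recovered from the steps of the FPKM values, were 31957411 to 35410308 reads in siYBX1 and 34207232 to 35299269 reads in siNC. Ybx1 itself was at 59.3, 67.9 and 61.3 FPKM in siYBX1 and at 135, 134 and 130 FPKM in siNC, with 47.3% of the control mean left (adjusted p = 3.98e-06, limma; exact two-sided permutation p = 0.1, the smallest that 3 against 3 libraries allow). Adipocyte markers such as Adipoq and Fabp4 summed to 3022 to 3515 FPKM in siYBX1 and 2542 to 3463 FPKM in siNC. Of these 8 markers 1 fell, where 11.1% of all tested genes were called lower. Of 6 brown adipocyte markers 3 were tested and none passed, and Elovl3 was below 0.1 FPKM. Neuronal markers summed to 1.12 to 1.47 FPKM in siYBX1 and 1.53 to 1.75 FPKM in siNC. Smooth muscle markers summed to 2024 to 2123 FPKM in siYBX1 and 593 to 660.2 FPKM in siNC, with Cnn1 below 0.1 FPKM, so this list moved with the groups. Preadipocyte and mesenchymal progenitor markers moved the other way, summing to 487 to 510 FPKM in siYBX1 and 531 to 553 FPKM in siNC, with 2 of 4 tested lower (Eng and Cd44); the part of either list in the results was not tested. The siNC replicate 1 library stood apart from the other controls, with a chi-square per gene of 19.9 and 23.2 against them, where the other control pair had 4.64, and pairs within siYBX1 had 8.36 to 11.

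Of the 52 tested genes, 7 were higher and 15 lower in siYBX1 (42.3% in all), against 20.6% of all 10341 genes tested (9.54% higher and 11.1% lower; limma on log2(FPKM + 1), Benjamini-Hochberg adjusted p below 0.05 over all genes). Of all 2132 calls, 46.3% were higher, and 29.7% when each library was rescaled to the same sum. The median log2 fold change was -0.08 for the tested motor and tubulin genes and -0.01 for all genes. The lower calls were nearly all kinesins of mitosis: 13 of the 15 belonged to that class. The groups of libraries did not overlap for 14 genes that were higher and 20 that were lower in siYBX1, against 19% (higher) and 21.9% (lower) of all tested genes, 40.9% in either direction. The plot of fold changes by role shows the mitotic kinesins as a block on the left, the transport kinesins around 0 or to its right, and the tubulins spread to both sides.

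**Figure D1:**
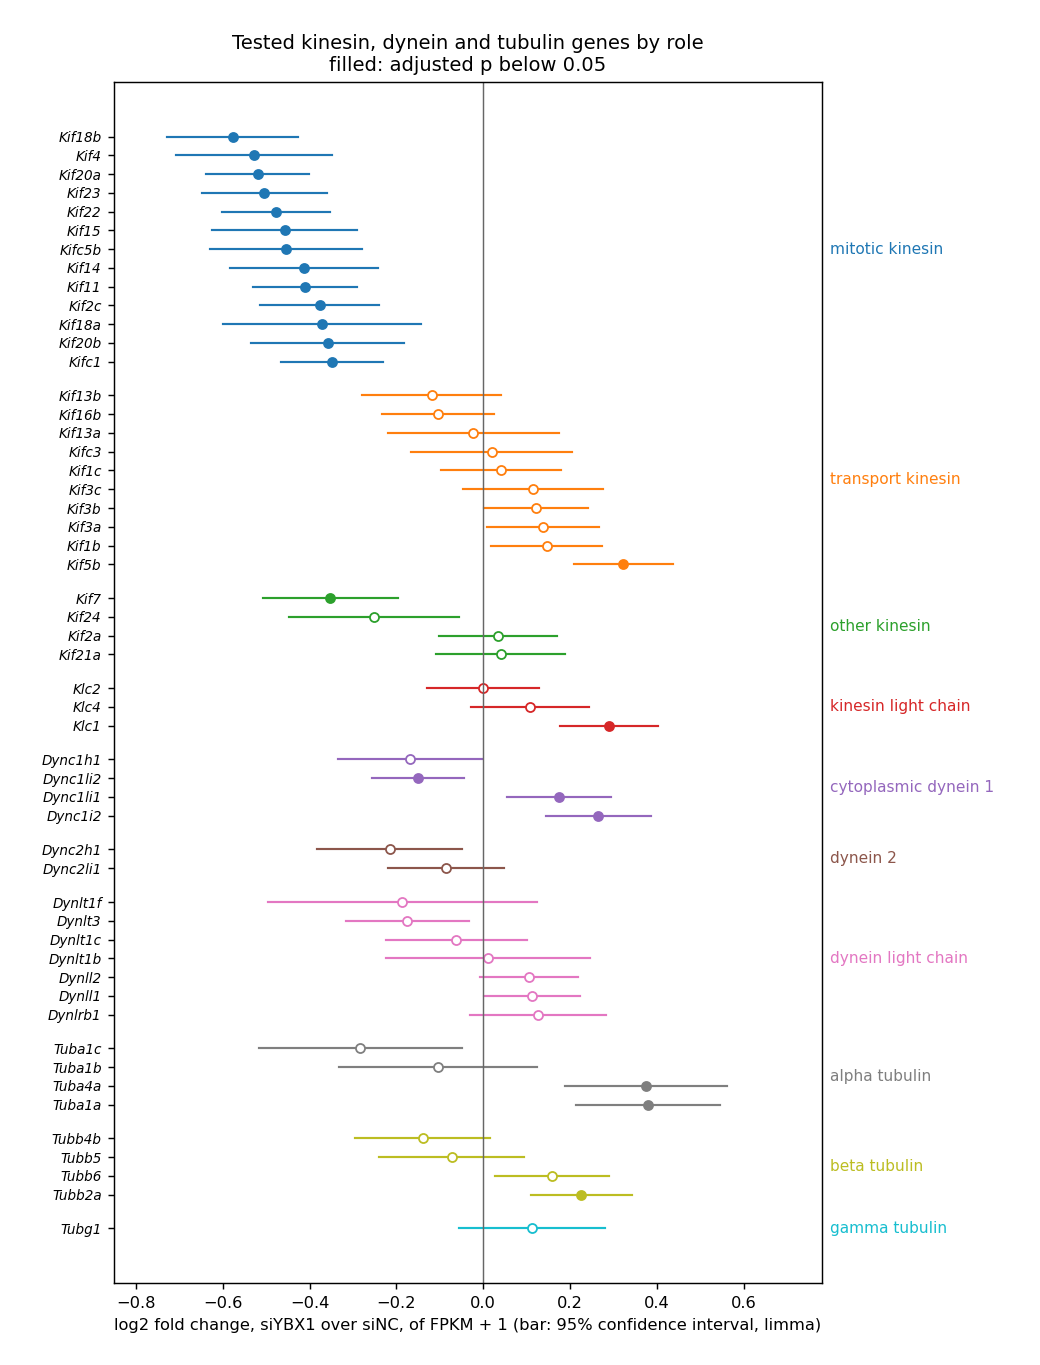
Log2 fold changes of the 52 tested genes, siYBX1 over siNC, on the log2(FPKM + 1) scale, with 95% confidence intervals from limma, grouped by role and sorted within each role; filled points passed an adjusted p of 0.05. The 13 mitotic kinesins lie between -0.58 and -0.35, while the 10 transport kinesins lie between -0.12 and 0.32.

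All 13 kinesins listed here as mitotic fell in siYBX1, and all were abundant enough to be tested. Their median log2 fold change was -0.45 and their range -0.58 to -0.35, and in each of the 13 all siYBX1 values lay below all siNC values. Their summed level was 101, 113 and 108 FPKM in siYBX1 and 154, 154 and 149 FPKM in siNC, a ratio of 0.706. Summed levels were lowest in siYBX1 replicate 1. The plot of kinesins by library shows the same separation gene by gene. The list was drawn up with earlier results of these data known, so the count of 13 depends on its membership. Kif2a, a depolymerase listed among the other kinesins, had a log2 fold change of 0.03 (adjusted p = 0.731, limma).

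Kif20a, which carries the chromosomal passenger complex to the midzone of the dividing cell, was the most abundant of them, at 26.5, 29.3 and 28.4 FPKM in siYBX1 and 39.7, 41.7 and 40.5 FPKM in siNC (log2 fold change -0.52, SE 0.05, adjusted p = 0.000254, limma). Kif11, the motor that pushes the spindle poles apart, was at 10.6, 11 and 10.8 FPKM in siYBX1 and 15.3, 14.5 and 14.2 FPKM in siNC (log2 fold change -0.41, SE 0.05, adjusted p = 0.000868). These Kif11 values rest on 1637 to 1881 reads in siYBX1 and 2400 to 2570 reads in siNC. For both genes the siYBX1 libraries were close together and well apart from the controls. Kif15, which can stand in for Kif11 at the spindle, averaged 3.61 ± 0.230 FPKM in siYBX1 and 5.34 ± 0.515 FPKM in siNC (SD, n = 3 each), 0.676 of the control level.

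The chromosome-bound motors and the kinesins of the class that act on microtubule ends fell too. Kif22, a kinesin that binds chromosome arms, was at 11.1, 12.1 and 11.1 FPKM in siYBX1 and 16.8, 16.2 and 16.1 FPKM in siNC (adjusted p = 0.000481, limma). Kif4, the other chromosome-bound kinesin of the set, was at 4.18, 5.03 and 5.47 FPKM in siYBX1 and 7.41, 7.70 and 7.28 FPKM in siNC (log2 fold change -0.53, SE 0.08). Kif18b, which acts on astral microtubule ends, had the most negative log2 fold change of all tested members, -0.58 (SE 0.07, adjusted p = 0.000481), with 3.74, 4.34 and 4.36 FPKM in siYBX1 and 6.70, 6.44 and 6.88 FPKM in siNC. In each of these the siYBX1 libraries were all below the controls, and siYBX1 replicate 1 was the lowest for Kif4 and Kif18b. Kif2c, which removes tubulin from microtubule ends at kinetochores, averaged 9.68 ± 0.741 FPKM in siYBX1 and 12.8 ± 0.0657 FPKM in siNC. Kif18a, which restrains chromosome movements at metaphase, spread most, at 2.23, 3.47 and 2.77 FPKM in siYBX1 against 3.77, 4.03 and 3.91 FPKM in siNC (log2 fold change -0.37, SE 0.10, adjusted p = 0.0285). It did not pass without siYBX1 replicate 1 (adjusted p = 0.0841), siYBX1 replicate 3 (0.0737), siNC replicate 2 (0.0674) or siNC replicate 3 (0.0667), always with limma. Nor did it pass without a filter (adjusted p = 0.122, limma).

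Kinesins of cell division proper showed the same direction. Kif23, the motor of the centralspindlin complex, was at 9.61, 10.9 and 9.44 FPKM in siYBX1 and 14.5, 15.2 and 14.0 FPKM in siNC (log2 fold change -0.50, SE 0.07, adjusted p = 0.000793, limma). Kif14, which takes part in cytokinesis, had the lowest level of the class, 0.976, 1.21 and 1.29 FPKM in siYBX1 and 1.88, 1.83 and 1.91 FPKM in siNC. Kif14 kept 0.620 of its control mean, although the log2(FPKM + 1) scale gives it a change of -0.41, since that scale understates changes at low levels. Kif20b, with a role late in cytokinesis, averaged 5.64 ± 0.630 FPKM in siYBX1 and 7.5 ± 0.484 FPKM in siNC. It did not pass without a filter (adjusted p = 0.0618, limma).

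Kifc1, a motor that moves towards the minus end and gathers spindle poles, had the smallest change of the class, at 9.58, 9.87 and 10.1 FPKM in siYBX1 and 13.0, 12.6 and 12.8 FPKM in siNC (log2 fold change -0.35, SE 0.05, adjusted p = 0.00184, limma). Kifc5b, a mouse gene closely related to Kifc1, was at 4.72, 5.59 and 5.79 FPKM in siYBX1 and 8.35, 7.56 and 7.23 FPKM in siNC. How reads shared by this pair were assigned is not given in the sources used here, so their separate values are uncertain. The upstream sequences of the 2 genes, shown here for their likeness, matched at 191 of 222 aligned bases (86.0%), with a longest shared run of 51 bases; capitals mark CCAAT boxes (CCAAT, or ATTGG on the other strand). Sequences here and in the next set are the last 120 bases before the annotated start, from RefSeq on GRCm38.p6, read along the gene.
Kifc1, chr17:33890634-33890753, strand -: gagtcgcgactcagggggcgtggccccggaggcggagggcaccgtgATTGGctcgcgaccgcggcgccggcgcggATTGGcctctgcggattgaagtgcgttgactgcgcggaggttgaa
Kifc5b, chr17:26916971-26917090, strand +: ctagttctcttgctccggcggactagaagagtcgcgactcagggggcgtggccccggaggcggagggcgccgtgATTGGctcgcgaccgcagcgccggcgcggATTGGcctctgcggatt

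The mixture of mitotic kinesins was described by shares of their summed FPKM. Kif20a made up 26.1% ± 0.120 of that sum in siYBX1 and 26.7% ± 0.730 in siNC (SD, n = 3 each), and the groups overlapped. Kif18b made up 3.86% ± 0.164 in siYBX1 and 4.38% ± 0.205 in siNC, and Kifc1 9.17% ± 0.367 in siYBX1 and 8.41% ± 0.196 in siNC, without overlap in either. The ratio of Kif20a to Kif23 was 2.82 ± 0.164 in siYBX1 and 2.79 ± 0.0924 in siNC, with overlap.

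**Figure D2:**
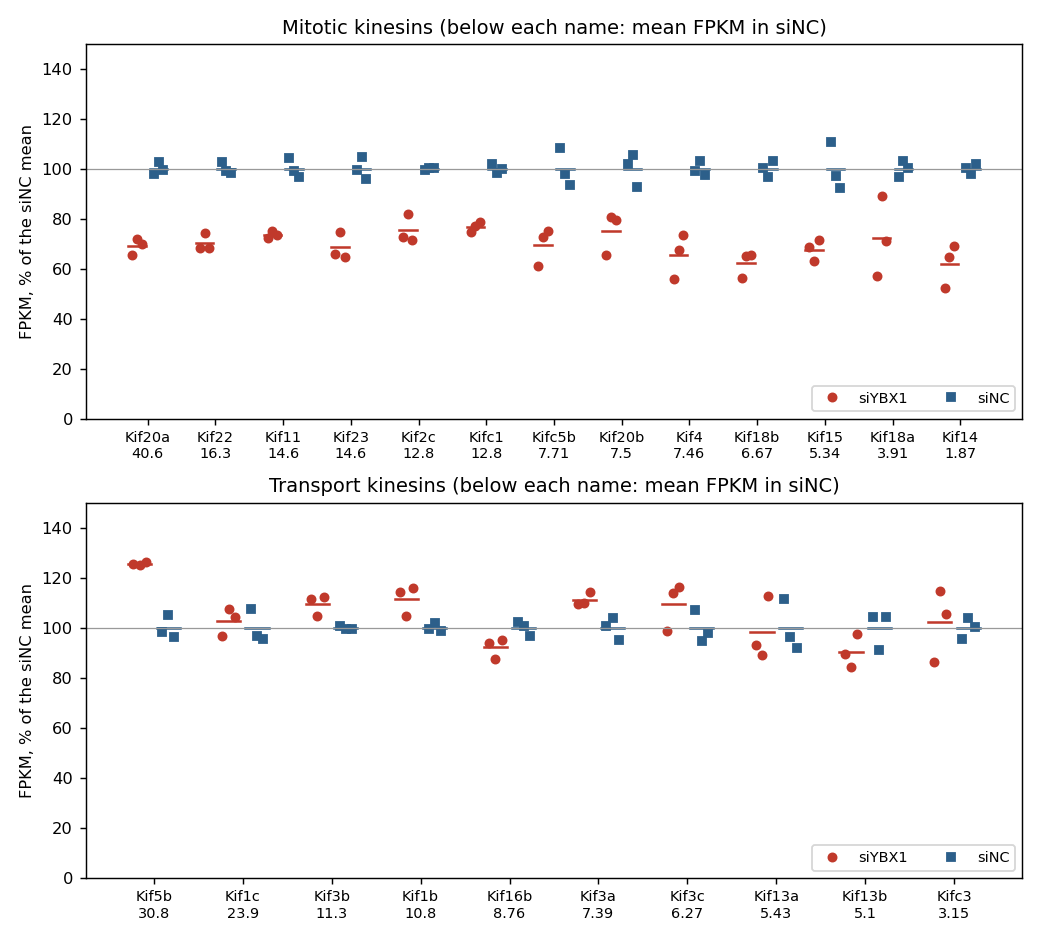
FPKM of each tested mitotic kinesin (top) and transport kinesin (bottom) in every library, as a percentage of that gene's siNC mean, with circles for siYBX1, squares for siNC and short lines for group means. All siYBX1 points of the 13 mitotic kinesins lie below the controls, and among the transport kinesins Kif5b stands above them in all 3 siYBX1 libraries.

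Promoters of genes active in mitosis often hold a cell cycle genes homology region (CHR), a short element bound by MuvB complexes, together with CCAAT boxes bound by NF-Y. The 250 bases before the annotated start were searched on both strands for TTTGAA or TTTAAA as CHR letters (TTTAAA reads the same on both strands) and for CCAAT. RefSeq windows matched 58 of the 75 genes, among them 12 of the 13 mitotic kinesins (not Kif20a) and 7 of the 10 tested transport kinesins. CHR letters were present in 5 of 12 mitotic kinesin windows (41.7%), in 0 of 8 transport kinesin windows and in 17.7% of the 10627 windows of tested genes. In the last 100 bases before the start they were present in 4 of 12 mitotic kinesin windows, against 5.49% of the windows of tested genes. CCAAT was present in 8 of 12 mitotic kinesin windows (66.7%), in 4 of 8 transport kinesin windows and in 36.0% of the windows of tested genes. The 8 transport kinesin windows cover 7 genes, since Kif1b has overlapping windows, and by gene CCAAT was present in 3 of 7. Such letters were not limited to kinesins of mitosis. Among windows of tested alpha tubulins, CHR letters were present in 1 of 4 and CCAAT in 2 of 4. That CHR match, TTTAAA at 46 bases, lies in Tuba4a, which was called higher. Among windows of tested beta tubulins, CHR letters were present in 1 of 3, outside the last 100 bases, and CCAAT in 2 of 3. No test was made, and a match describes letters and not a bound site. Of the 4 mitotic kinesin windows with CHR letters in the last 100 bases, that of Kif14 (TTTAAA at 42 bases, CCAAT at 92 bases) is not shown. The following 4 windows are shown because they hold CHR letters near the start, or a pair of CCAAT boxes in the case of Kif18b. Capitals mark the matches, with CHR letters on the other strand reading TTCAAA.
Kif11, chr19:37376262-37376381, strand +: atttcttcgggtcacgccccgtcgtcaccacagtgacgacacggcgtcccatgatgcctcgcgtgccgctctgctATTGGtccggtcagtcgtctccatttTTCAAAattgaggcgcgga
Kif22, chr7:127042421-127042540, strand -: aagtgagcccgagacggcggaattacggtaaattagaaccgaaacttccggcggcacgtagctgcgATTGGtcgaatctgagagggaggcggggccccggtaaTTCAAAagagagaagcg
Kif15, chr9:122950961-122951080, strand +: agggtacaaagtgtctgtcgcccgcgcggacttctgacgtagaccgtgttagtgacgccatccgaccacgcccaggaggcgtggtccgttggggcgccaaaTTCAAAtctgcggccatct
Kif18b, chr11:102925125-102925244, strand -: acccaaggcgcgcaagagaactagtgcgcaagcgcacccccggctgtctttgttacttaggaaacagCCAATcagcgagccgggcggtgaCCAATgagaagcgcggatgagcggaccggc
In Kif11, Kif15 and Kif22 the CHR letters near the start lie on the strand opposite the gene and begin 19, 19 and 17 bases before the start. Kif11 and Kif22 hold a CCAAT box upstream of it, at 45 and 54 bases. The windows of Kif18b, Kifc1 and Kifc5b hold no such letters.

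Spindle genes that do not carry a kinesin name moved the same way. Of 26 listed, 25 were tested and all 25 were lower, against 11.1% of all tested genes. Their median log2 fold change was -0.38 and their range -0.52 to -0.20. Cenpe, a kinesin of the kinetochore named outside the Kif series, averaged 5.72 ± 0.263 FPKM in siYBX1 and 8.61 ± 0.238 FPKM in siNC (SD, n = 3 each; log2 fold change -0.52, adjusted p = 0.000418, limma). Aspm, a spindle pole protein, had a log2 fold change of -0.51. Earlier work on these data had already shown mitotic genes to be lower, so this list is not independent evidence. Of 10 proliferation markers 7 fell, against the same 11.1%, with summed levels of 319 to 341 FPKM in siYBX1 and 391 to 399 FPKM in siNC. Pcna, a replication clamp, averaged 118 ± 2.95 FPKM in siYBX1 and 118 ± 3.05 FPKM in siNC (95% confidence interval of the log2 fold change -0.11 to 0.11, adjusted p = 0.981, limma), and Cdk1 (adjusted p = 0.0813) and Mcm6 (0.0708) did not pass. In bulk RNA, fewer dividing cells and less kinesin RNA per dividing cell cannot be told apart.

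Transport kinesins were different. Of the 15 listed, 10 were tested. Of these, 1 rose and none fell, with a median log2 fold change of 0.08. That share of rises (10%) is near the 9.54% of all tested genes called higher, where 11.1% were called lower. The ranges of the mitotic and transport classes, as listed here, did not overlap, and the difference between the classes was not tested. Kif5b, the widely expressed heavy chain of kinesin-1, the conventional transport kinesin, was at 38.8, 38.7 and 39.0 FPKM in siYBX1 and 30.4, 32.4 and 29.8 FPKM in siNC, 1.26 times the control mean (log2 fold change 0.32, SE 0.05, adjusted p = 0.00232, limma). Its 3 siYBX1 values were nearly equal and all above the controls. Klc1, a light chain that links kinesin-1 to cargo, was at 26.5, 25.2 and 26.9 FPKM in siYBX1 and 21.7, 21.3 and 20.7 FPKM in siNC (log2 fold change 0.29, SE 0.05, adjusted p = 0.00401). The Kif5b to Klc1 ratio was 1.48 ± 0.0463 in siYBX1 and 1.45 ± 0.0629 in siNC, with overlap. Both passed in all 15 alternative settings.

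The other light chains and transport kinesins moved less. Klc2 was at 10.9 ± 0.590 FPKM in siYBX1 and 10.9 ± 0.248 FPKM in siNC (95% confidence interval of the log2 fold change -0.13 to 0.13), and Klc4 had a log2 fold change of 0.11 (adjusted p = 0.232, limma). Kif3a and Kif3b, which pair in kinesin-2, the motor of cilia and some vesicles, had log2 fold changes of 0.14 (adjusted p = 0.116) and 0.12 (adjusted p = 0.131), and their groups did not overlap. Kif3a was at 8.12, 8.13 and 8.47 FPKM in siYBX1 and 7.46, 7.70 and 7.03 FPKM in siNC. Kif1b, known for carrying mitochondria and synaptic vesicle precursors, was at 12.4, 11.3 and 12.5 FPKM in siYBX1 and 10.7, 11 and 10.7 FPKM in siNC (adjusted p = 0.0957). All 3 siYBX1 libraries were above all controls for Kif3a, Kif3b and Kif1b, while Klc2 and Klc4 overlapped. Of the 10 tested transport kinesins, the groups did not overlap for 4 that were higher and 1 that was lower. The shares among all tested genes were 19% and 21.9%.

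Gene length bears on this class, since longer genes were lower in siYBX1 as a whole. Among the 2069 shortest tested genes the log2 fold changes had a median of 0.08 and 18.9% were called higher, and among the 2068 longest the median was -0.07 and 3.48% were called higher. The 10 tested transport kinesins had recovered lengths of 4601 bases (Kifc3) to 16493 bases (Kif1b). After a correction for length, 4 transport kinesins were higher and none was lower: Kif5b, Kif1b (adjusted p = 0.0164, limma), Kif3a (0.0274) and Kif3b (0.0430). The mitotic class had a median of -0.42 after that correction, with all 13 still lower.

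Kif1c, a vesicle motor and the second most abundant of the tested transport kinesins, was at 23.2, 25.7 and 24.9 FPKM in siYBX1 and 25.7, 23.1 and 22.9 FPKM in siNC (log2 fold change 0.04, 95% confidence interval -0.10 to 0.18). Kif13b and Kif16b, which work on endosomes and other membranes, had the lowest values of the class, at -0.12 (adjusted p = 0.265, limma) and -0.10 (adjusted p = 0.225). All siYBX1 values of Kif16b lay below all siNC values, while the Kif13b groups overlapped. Kif3c (0.11), Kif13a (-0.02) and Kifc3 (0.02) did not pass either. Kinesins known from neurons were nearly silent: Kif1a had 0 to 1 reads in every library, Kif5c 11 to 12 reads in siYBX1 and 4 to 14 reads in siNC, and Kif5a 0.101 to 0.223 FPKM in siYBX1 and 0.177 to 0.247 FPKM in siNC. Of the neuronal marker list, Rbfox3, Nefm, Elavl3 and Syt1 were below 0.1 FPKM.

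Among the remaining kinesins, Kif7 fell. Kif7 is a kinesin of the tip of the primary cilium and a regulator of Hedgehog signalling. It was at 2.18, 2.23 and 2.44 FPKM in siYBX1 and 3.44, 3.14 and 3.01 FPKM in siNC, 0.715 of the control mean (log2 fold change -0.35, SE 0.07, adjusted p = 0.00689, limma). Its call held in all 14 alternatives that tested it. Kif24, a centriolar kinesin that holds back cilium growth, was at 0.896, 1.05 and 0.655 FPKM in siYBX1 and 1.29, 1.18 and 1.18 FPKM in siNC. The groups did not overlap, but Kif24 did not pass (adjusted p = 0.0682), except without siYBX1 replicate 2 (0.0490), with equal library sums (0.0438) and in the test on reads (0.0313). Kif2a, a depolymerase, had a log2 fold change of 0.03 (95% confidence interval -0.10 to 0.17), and Kif21a one of 0.04 (-0.11 to 0.19). Of the 6 below the level for testing in this group, Kif6 had 66 to 75 reads in siYBX1 and 47 to 60 reads in siNC (adjusted p = 0.0584 without a filter), and Kif9 had 74 to 100 reads in siYBX1 and 73 to 108 reads in siNC. Kif19b, which was in none of the role lists, had 0 or 1 read per library.

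The subunits of cytoplasmic dynein 1 moved in different directions. Dync1i2, the widely expressed intermediate chain that ties the motor to dynactin, was at 77.6, 74.9 and 70.4 FPKM in siYBX1 and 59.7, 63.9 and 61.3 FPKM in siNC (log2 fold change 0.27, 95% confidence interval 0.14 to 0.39, adjusted p = 0.00818, limma). It passed in all 15 alternatives. All siYBX1 libraries were above all controls. Dync1h1, the heavy chain that holds the motor domain, was at 38.3, 35.7 and 41.8 FPKM in siYBX1 and 48.0, 40.8 and 41.7 FPKM in siNC. Those groups overlapped, and Dync1h1 did not pass (log2 fold change -0.17, adjusted p = 0.13). The Dync1i2 to Dync1h1 ratio was 1.94 ± 0.222 in siYBX1 and 1.43 ± 0.165 in siNC (SD, n = 3 each). These transcripts differ in length, with 2939 bases for Dync1i2 and 14398 for Dync1h1, and after the length correction Dync1h1 was at -0.09.

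The 2 light intermediate chains, which bind cargo adaptors and are alternatives to each other in the complex, went opposite ways by small amounts. Dync1li1 was at 22.5, 24.2 and 24.8 FPKM in siYBX1 and 21.0, 20.8 and 21.1 FPKM in siNC. Dync1li2 was at 22.1, 22.7 and 22.4 FPKM in siYBX1 and 25.0, 25.2 and 24.7 FPKM in siNC. In neither did the groups overlap, and the Dync1li1 to Dync1li2 ratio was 1.06 ± 0.0443 in siYBX1 and 0.840 ± 0.0154 in siNC. Both calls lay at the threshold (adjusted p = 0.0440 and 0.0497, limma). Dync1li1 did not pass without siYBX1 replicates 2 or 3 or any one siNC library (adjusted p = 0.0530 to 0.126, limma). It also did not pass with equal library sums (0.167), without a filter (0.0646) or in the test on reads (0.0574). Dync1li2 did not pass without any one library (0.0610 to 0.149). Neither passed after the length correction (0.0583 and 0.221) or with a replicate block (0.107 and 0.144). Recovered lengths were 2046 bases for Dync1li1 and 8261 for Dync1li2, and the ratio was not corrected for length. Dync1i1, the intermediate chain known mainly from neurons, had at most 3 reads in any library.

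Dynein light chains, which are shared with other protein complexes, gave no call: 0 of 7 tested passed with limma, against 20.6% of all tested genes. The summed level of the 8 light chain genes was 684 to 721 FPKM in siYBX1 and 618 to 725 FPKM in siNC. Dynlrb1, a roadblock-type light chain and the most abundant of them, was at 356, 359 and 356 FPKM in siYBX1 and 294, 355 and 335 FPKM in siNC. Its lowest value was that of siNC replicate 1, the library that stood apart. Dynll1 and Dynll2, the LC8 light chains, had log2 fold changes of 0.11 (adjusted p = 0.135) and 0.11 (adjusted p = 0.16), with groups that did not overlap. Dynlt3, a Tctex-type light chain, was at 98.6, 101 and 95.6 FPKM in siYBX1 and 101, 118 and 114 FPKM in siNC (log2 fold change -0.17, adjusted p = 0.0756). It passed as lower without siNC replicate 1 (0.0068), after the length correction (0.0471), with quantile normalization (0.0112) and with equal library sums (0.0152). Dynlt1a, Dynlt1b, Dynlt1c and Dynlt1f are close copies of one another in the mouse, and their separate values are uncertain; Dynlt1b was at 83.4 ± 8.16 FPKM in siYBX1 and 83.2 ± 13.0 FPKM in siNC. At unadjusted p below 0.05, the light chains gave 2 genes, Dynlt3 and Dynll1. The share of all genes at that looser level was not taken, so this count has no background to be read against. The test on reads called none of the 7.

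Dynein 2, the motor that returns cargo from the tip of cilia, is represented by 2 genes. Dync2h1, its heavy chain, was at 2.24, 2.51 and 2.65 FPKM in siYBX1 and 2.77, 3.26 and 3.05 FPKM in siNC (log2 fold change -0.22, adjusted p = 0.0679, limma). The groups did not overlap, and the gene passed without siNC replicate 1 (adjusted p = 0.0423, limma), with equal library sums (0.0429) and in the test on reads (0.0197). Its recovered length is 14451 bases, and after the length correction it was at -0.14 (adjusted p = 0.204). With quantile normalization it was at -0.16 (0.117). Dync2li1, its light intermediate chain, was at 18.4 ± 0.349 FPKM in siYBX1 and 19.6 ± 1.47 FPKM in siNC.

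**Figure D3:**
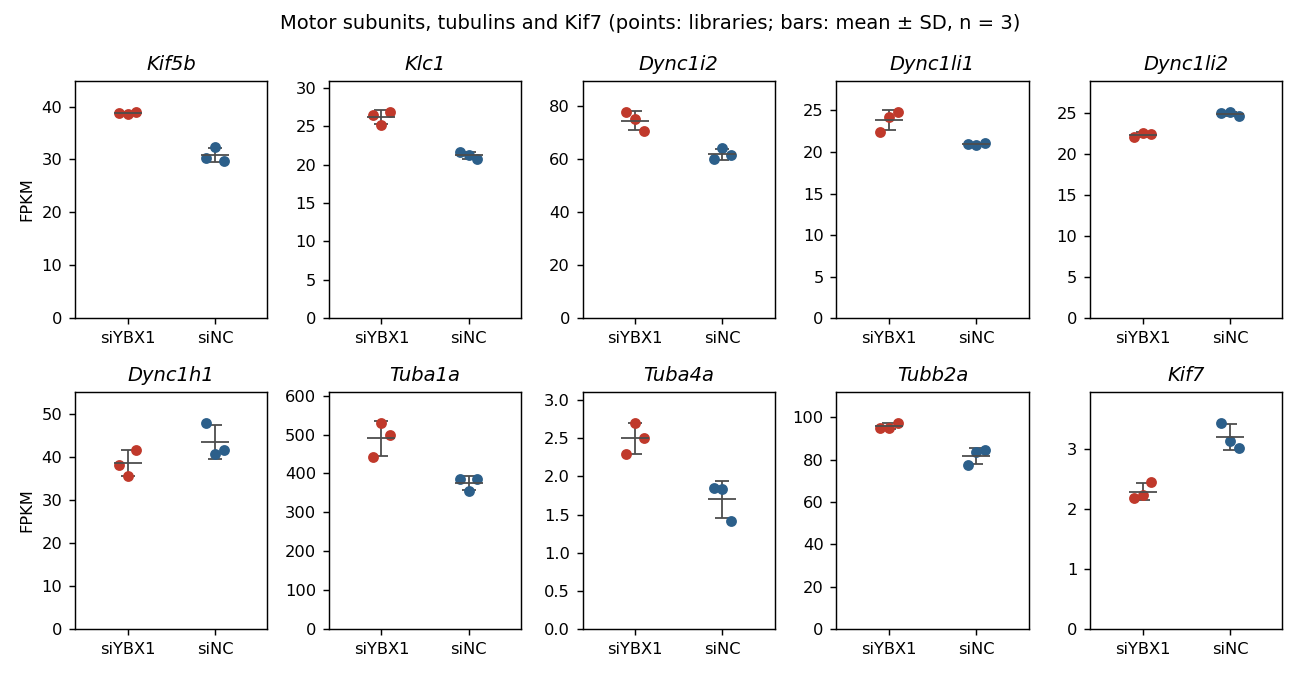
FPKM per library (points) with mean ± SD (n = 3) for kinesin-1 and dynein 1 subunits, 3 tubulins and Kif7, siYBX1 left of siNC, each panel on its own linear axis from 0. Kif5b, Klc1, Dync1i2, Dync1li1, Tuba1a, Tuba4a and Tubb2a are above their controls in every siYBX1 library, Dync1li2 and Kif7 are below, and Dync1h1 overlaps.

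Alpha tubulin genes shifted in their make-up. Tuba1a, the alpha isotype best known from the developing brain, was at 442, 531 and 498 FPKM in siYBX1 and 386, 356 and 385 FPKM in siNC, 1.30 times the control mean (log2 fold change 0.38, SE 0.07, adjusted p = 0.00651, limma). No alternative of 15 ended that call. Tuba1b, a widely expressed isotype, was at 279, 376 and 360 FPKM in siYBX1 and 359, 336 and 388 FPKM in siNC, so that the groups overlapped (log2 fold change -0.10, adjusted p = 0.504). Tuba1c was at 84.8, 120 and 111 FPKM in siYBX1 and 128, 120 and 133 FPKM in siNC (log2 fold change -0.28, adjusted p = 0.0829), with groups that only just missed overlapping. For Tuba1b and Tuba1c, siYBX1 replicate 1 was the lowest library. Tuba1c passed without siYBX1 replicate 2 (adjusted p = 0.0403), with equal library sums (0.0414), with quantile normalization (0.0472) and in the test on reads (0.0465).

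As shares of the summed alpha tubulin FPKM, which do not depend on a library's total, the isotypes separated more clearly. Tuba1a made up 54.7%, 51.6% and 51.3% in siYBX1 and 44.1%, 43.7% and 42.4% in siNC. Tuba1b made up 34.5%, 36.5% and 37.0% in siYBX1 and 41.1%, 41.3% and 42.7% in siNC, and Tuba1c 11.2% ± 0.623 in siYBX1 and 14.7% ± 0.0825 in siNC (SD, n = 3 each). The groups did not overlap for any of these shares, and siYBX1 replicate 1 lay farthest from the controls. The ratio of Tuba1a to Tuba1b was 1.46 ± 0.108 in siYBX1 and 1.04 ± 0.0432 in siNC. Shares of a single sum are tied: a higher Tuba1a share lowers the others, so these are not separate results. The summed alpha tubulin level itself overlapped, at 808, 1029 and 972 FPKM in siYBX1 and 875, 814 and 908 FPKM in siNC. These 3 genes encode nearly identical proteins and how shared reads were counted is not given in the sources used here, so the shares are uncertain. Tuba4a, an isotype of muscle, brain and platelets, was at 2.29, 2.71 and 2.50 FPKM in siYBX1 and 1.85, 1.83 and 1.42 FPKM in siNC (log2 fold change 0.38, adjusted p = 0.0118, limma). It did not pass without siYBX1 replicate 2 (0.0505) or without a filter (0.0564). The smooth muscle marker list, 4 of whose 6 tested genes rose, moved with the groups as Tuba1a and Tuba4a did, and its part in these results was not tested.

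**Figure D4:**
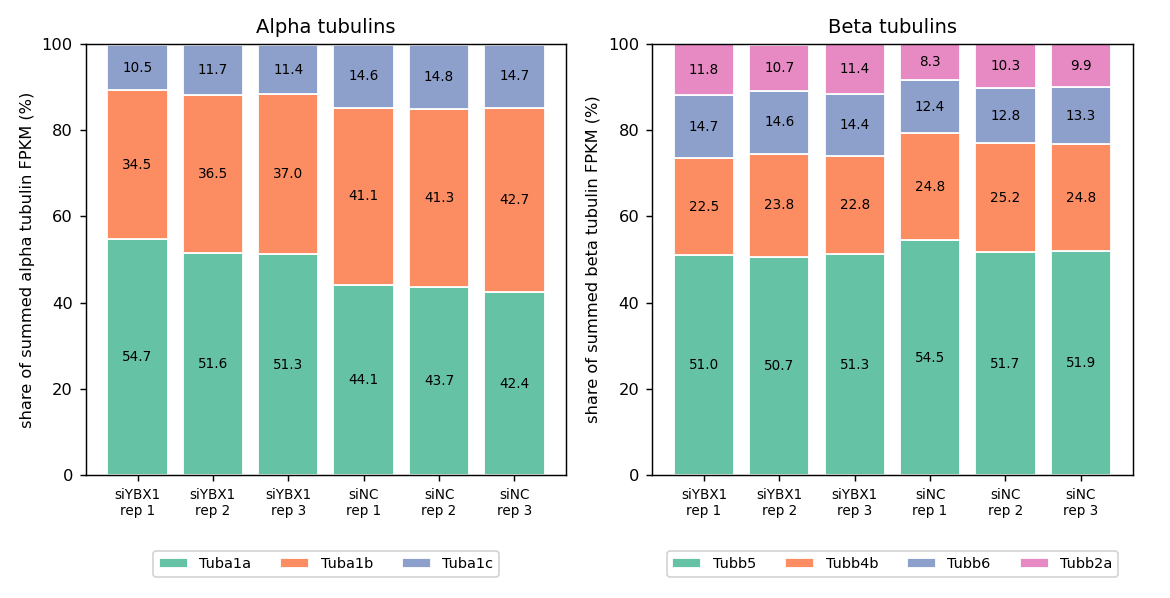
Share of each isotype in the summed alpha (left) and beta (right) tubulin FPKM of every library, siYBX1 libraries left of siNC; isotypes not drawn fill the small remainder. Tuba1a makes up 51.3% to 54.7% in siYBX1 and 42.4% to 44.1% in siNC, while Tubb5 makes up 50.7% to 51.3% in siYBX1 and 51.7% to 54.5% in siNC.

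Beta tubulin levels moved less. Tubb2a was at 95, 95 and 97.4 FPKM in siYBX1 and 77.3, 83.6 and 84.4 FPKM in siNC, and rose (log2 fold change 0.23, SE 0.05, adjusted p = 0.0136, limma). After the length correction Tubb2a was at 0.18 (adjusted p = 0.0283), and it did not pass when a replicate block was added to that correction (0.0819). Tubb6, an isotype known for destabilising microtubules, was at 119, 130 and 123 FPKM in siYBX1 and 115, 104 and 113 FPKM in siNC (log2 fold change 0.16, adjusted p = 0.0832), and passed without siNC replicate 1 (0.0418). The siYBX1 values of both genes were above all controls. Tubb5, the main isotype of dividing and non-neuronal cells, was at 412, 451 and 437 FPKM in siYBX1 and 507, 421 and 443 FPKM in siNC (log2 fold change -0.07, 95% confidence interval -0.24 to 0.09). Tubb4b, a widely expressed isotype also used in cilia, was at 181, 212 and 195 FPKM in siYBX1 and 231, 205 and 211 FPKM in siNC (log2 fold change -0.14, adjusted p = 0.179). Tubb5 and Tubb4b overlapped between the groups. Summed beta tubulin was 850.1 ± 40.9 FPKM in siYBX1 and 866 ± 59.6 FPKM in siNC, and the groups overlapped. As shares of that sum the beta isotypes separated too. Tubb2a made up 11.3% ± 0.555 in siYBX1 and 9.49% ± 1.05 in siNC (SD, n = 3 each). Tubb6 was at 14.6% ± 0.166 in siYBX1 and 12.8% ± 0.457 in siNC. Tubb4b was at 23.0% ± 0.717 in siYBX1 and 24.9% ± 0.244 in siNC, and Tubb5 was lower as well. The groups did not overlap for any of these tied shares.

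Beta isotypes of special tissues were at the limit of detection. Tubb3, the neuronal isotype, had 5, 1 and 0 reads in siYBX1 and 1, 0 and 0 reads in siNC. Tubb1, the platelet isotype, had 1 read in 1 siNC library, and Tubb4a was at 0.0138 to 0.0153 FPKM in siYBX1 and 0.0138 to 0.0143 FPKM in siNC. Tubb2b, close in sequence to Tubb2a, had 28, 118 and 37 reads in siYBX1 and 20, 23 and 30 reads in siNC, with siYBX1 replicate 2 far above the rest (adjusted p = 0.308 without a filter, limma). Of the alpha isotypes, Tuba3a, Tuba3b and Tuba8 had at most 2 reads in any library. Tubg1, the gamma tubulin that starts new microtubules, was at 22.0 ± 1.53 FPKM in siYBX1 and 20.4 ± 1.98 FPKM in siNC (adjusted p = 0.314, limma), and Tubg2 had at most 1 read.

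The partners of motors and tubulins were read from lists chosen by role. Of 15 tested dynactin and dynein adaptor genes 6 rose and 1 fell (46.7%, against 20.6% of all tested genes), with a median log2 fold change of 0.07. Nde1, which recruits dynein at kinetochores and nuclei, fell to 22.0 ± 1.65 FPKM in siYBX1, against 33.3 ± 0.438 FPKM in siNC (SD, n = 3 each; log2 fold change -0.58, adjusted p = 0.000254, limma). Actr10 (0.28) and Dctn3 (0.25), both subunits of dynactin, rose, though Actr10 did not pass without siYBX1 replicate 2 nor Dctn3 without siYBX1 replicate 1. Among 12 kinesin partners and cargo adaptors 1 rose, Arl8a (log2 fold change 0.35, adjusted p = 0.00278), a small GTPase that couples lysosomes to kinesin.

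Of genes that fold tubulin, bind microtubules or modify tubulin, the called share was 42.9% for folding, 40% for microtubule-associated, 27.3% for modification and 12.5% for the gamma-tubulin ring, against 20.6% of all tested genes; the last pair lie near that background. Of 14 tubulin folding genes 6 rose and none fell, with a median of 0.16. Pfdn4 (log2 fold change 0.54, adjusted p = 0.00550, limma) and Vbp1 (0.38, adjusted p = 0.00332), subunits of the prefoldin chaperone, had the largest rises. Of 20 tested microtubule-associated genes 3 rose and 5 fell. Stmn1, which binds free tubulin and is abundant in dividing cells, had a log2 fold change of -0.40 (adjusted p = 0.000793), and the end-binding protein gene Mapre2 one of -0.36. Map7d1, whose protein helps kinesin-1 onto microtubules, rose by 0.31 on the log2 scale (adjusted p = 0.00547). Tubgcp6 was the 1 gene of 8 in the gamma-tubulin ring complex that passed, at -0.31. Of 11 tubulin modification genes 1 rose and 2 fell, and Ttll12 (-0.33, adjusted p = 0.0114) was the only one of these 3 whose call held without each library in turn.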

How the data were processed

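RNA of differentiated C3H10T1/2 cells was sequenced in 3 siYBX1 and 3 siNC libraries. The authors deposited FPKM values per gene symbol. Tools listed in the submitters' processing notes are HISAT2, HTSeq and fastp, with the build GRCm39 and no versions or roles. Strandedness and the handling of shared reads are not given in the sources used here. Columns were matched to samples by group name and replicate number.

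Genes whose mean reached 1 FPKM were tested two-sided on log2(FPKM + 1) by limma 3.58.1 in R 4.3.3 (trended variance), with Benjamini-Hochberg adjustment over all 10341 genes and no covariate. Ratios named as such are of mean FPKM. The steps of the FPKM values gave whole reads (tolerance 0.02 reads) for 16422 of 16423 genes (99.994%), with library totals and gene lengths; these served for read numbers, the length correction (loess, span 0.3) and limma's voom test on reads (mean of at least 10). The smallest fitting length was taken, so reads and length can come out too small where read numbers share a divisor. For a 2 kb gene, a single read equals 0.0141 to 0.0156 FPKM. The test was checked on simulated reads with the same variability for all genes and neither an outlying library nor a length trend. That check therefore does not cover these features of the real libraries. Promoter windows came from RefSeq on GRCm38.p6, matched by symbol, and no coordinates of the deposited values are given.

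The genes, role lists, subunit ratios and marker lists were chosen with earlier results of these data known. Named are all called members, the most abundant of each role and others by their role, and of the partner lists up to 2 largest rises and falls. Alternatives were another pseudocount (0.1), no filter, a filter at 5 FPKM, equal library sums (TPM), quantile normalization, the length correction, voom, a replicate block and leaving out each library.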

Additional observations from a re-analysis of the deposited data

How the results depend on the processing

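The 13 lower mitotic kinesins were 12 to 13 without each library in turn, 11 without a filter, and 10 of 10 tested when the mean had to reach 5 FPKM; in the other settings all 13 passed. Transport kinesins called were 1 to 1 without each library, 4 after the length correction and 1 when a replicate block was added to it, where Kif1b (adjusted p = 0.0582, limma) and Kif3a (0.0785) did not pass, nor did Kif3b. Members called higher were 5 to 7 and lower 13 to 16 without each library, and 5 to 9 and 11 to 19 in the other settings. The log2 fold change of Ybx1 was -1.13 to -1.03 without each library and -1.16 to -1.05 in the other settings. Among all genes, calls higher in siYBX1 were 577 without a filter, and 547 to 970 without each library; calls lower were 664 without a filter, and 604 to 1056 without each library; leaving out siYBX1 replicate 1 gave 595 and 604, siYBX1 replicate 2 547 and 759, and siNC replicate 3 750 lower. The replicate block gave 607 higher and 739 lower, and with the length correction 517 higher and 705 lower. Same-numbered libraries did not deviate together (correlations -0.306, -0.131 and -0.246). Deviations were taken from the mean of each small group, so these correlations cannot settle whether the numbers pair the samples. With the block, 50 of 52 tested members stood on the same side of the threshold as without it. No called member changed sign in any setting. Fold changes of genes under about 1 FPKM are limited by their few reads.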
